A study of Homo sapiens with 8 samples.

Results

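The 9 genes described here are members of the epidermal growth factor (EGF) family and its shedding machinery: the ligands AREG, EREG, HBEGF, TGFA and NRG1, the receptors EGFR, ERBB2 and ERBB3, and the protease ADAM17. They were chosen by name, as 9 of the 57736 Ensembl gene IDs in each count file, and each was followed across all 8 libraries. IMR90, an established line of human fetal lung fibroblasts, was the source of every library. In the RNA-seq experiment, 1 library labelled ADAR1 KD was set against 1 library labelled Ctrl; ADAR1 (gene ADAR) edits adenosine in double-stranded RNA. In the RNA immunoprecipitation experiment, lines with shADAR1, shHuR or shControl (short hairpin RNAs against ADAR1, against HuR, or a control hairpin) gave 1 precipitate with an antibody against HuR (RIP) and 1 input library each. HuR (gene ELAVL1) is an RNA-binding protein that favours AU-rich and U-rich stretches. Each group held 1 library, the experiment held no mock precipitate, and the labels give neither the hairpin sequences nor the number of clones. The labels do not say how the ADAR1 KD of the RNA-seq was made.

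EGF-family ligands are made as membrane-anchored precursors that metalloproteases release. AREG, EREG, HBEGF and TGFA bind EGFR, and NRG1 binds ERBB3 and ERBB4, while ERBB2 has no known ligand and serves as a dimer partner. Receptor dimers signal through RAS and ERK and through phosphoinositide 3-kinase, and ligand mRNAs of the family are known as short-lived transcripts that growth signals induce. In senescent fibroblasts, AREG and EREG are known as secreted factors.

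EREG and AREG are neighbours on chromosome 4. In RefSeq the order there is CXCL2, MTHFD2L, EPGN, EREG, AREG, BTC and PARM1, so that 4 ligand genes of the family stand side by side. The 120 bases before the start of both genes are shown, because these neighbours were both higher in all 3 knockdown comparisons described below. They come from RefSeq (GRCh38.p14, plus strand), chr4:74445016-74445135 for AREG and chr4:74365025-74365144 for EREG, and capitals mark the motifs found.
AREG: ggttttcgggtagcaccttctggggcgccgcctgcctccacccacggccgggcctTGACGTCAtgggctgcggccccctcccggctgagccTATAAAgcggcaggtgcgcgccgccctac
EREG: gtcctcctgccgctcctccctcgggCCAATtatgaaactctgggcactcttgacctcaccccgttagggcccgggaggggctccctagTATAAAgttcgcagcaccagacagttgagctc
Both promoters hold TATAAA, the TATA box, beginning at -29 in AREG and at -32 in EREG. AREG also holds TGACGTCA, the full cyclic AMP response element, at -65, and EREG holds CCAAT at -95. Among 35116 RefSeq promoters, 5.63% hold TATAAA, 1.29% hold TGACGTCA and 20.4% hold CCAAT on either strand within the same 120 bases before the start. These matches are descriptions of the letters, not evidence of binding.

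The 3′ untranslated regions (UTRs) of the members were read from GENCODE 29 transcripts (GRCh38), because HuR is known to bind there. Capitals mark each ATTTA, the AU-rich pentamer, written as DNA and searched on the transcript strand, with overlapping matches counted. The stretches shown hold the densest run of pentamers in 3 ligand UTRs and a single pentamer of the ADAM17 UTR, and lie at chr4:74454935-74454961 (AREG, plus strand), chr4:74387370-74387396 (EREG, plus strand), chr5:140333662-140333688 (HBEGF, minus strand) and chr2:9489602-9489628 (ADAM17, minus strand).
AREG: ttgtaaataATTTATTTAatATTTAat
EREG: ATTTAtttcATTTAcaaaagATTTAtt
HBEGF: tttattctatgtatgttaATTTATTTA
ADAM17: aaaatatatatctaaATTTAgaaatca
AREG has the shortest of these UTRs, 269 bases with 4 pentamers, or 14.9 per kb. Of annotated UTRs at least that long, cut to their first 269 bases, 0.899% hold as many. EREG has 20 pentamers in 3943 bases and 1 nonamer TTATTTATT. Of UTRs at least as long, cut to the same length, 4.02% hold as many pentamers. EREG also has 6 overlapping matches to a run of 7 T, all in a single stretch of T, beginning at bases 1984 to 1989 after the stop. ADAM17, by contrast, has 7 pentamers in 1691 bases but 22 overlapping matches to a run of 7 T. Of UTRs at least as long, cut to that length, 2.64% reach that count. Most of these matches lie in a single stretch of T, beginning at bases 428 to 445 after the stop. HBEGF has 5 pentamers in 1456 bases and TGFA 13 in 3579 bases. The receptors are poorer in them: 9 in the 6011 bases of EGFR, 0 in the 618 bases of ERBB2 and 2 in the 1450 bases of ERBB3. The annotated UTR of the NRG1 transcript used is 5 bases long and was not used.

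**Figure D1:**
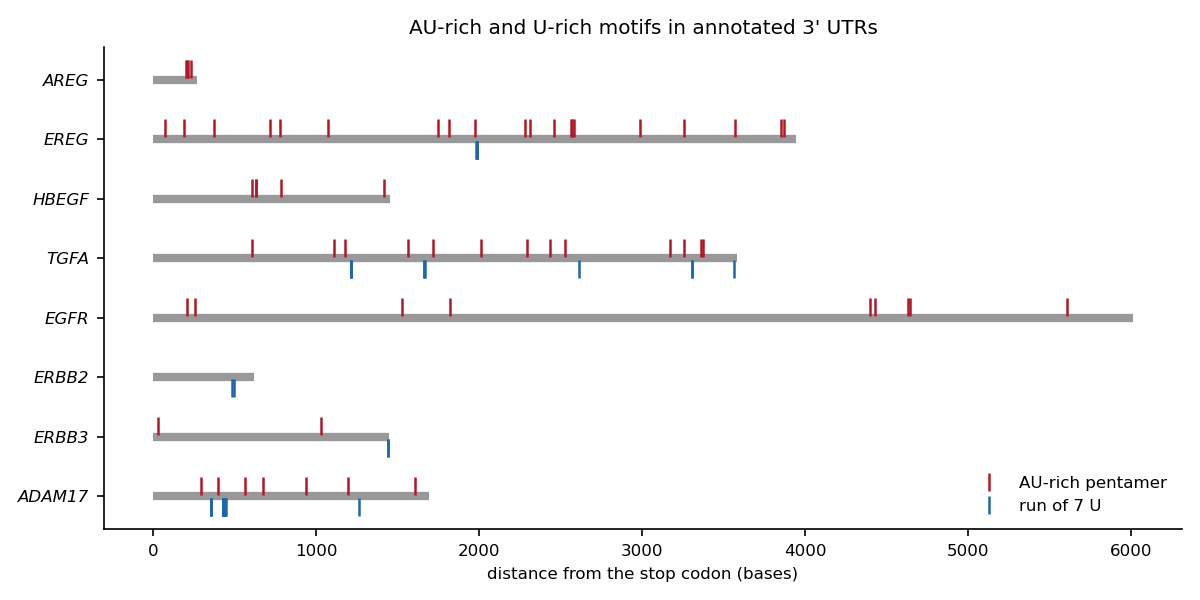
Positions of AU-rich pentamers (red ticks above each line) and runs of 7 U (blue ticks below) along the annotated 3′ UTR of 8 members, in bases from the stop codon; the grey line is the UTR. AREG packs its 4 pentamers into 269 bases, EREG spreads 20 over 3943 bases, and ERBB2 has none.

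The libraries held between 28390935 and 50711218 counts. ADAR was 7.01-fold lower in the ADAR1 KD library than in Ctrl and 2.93-fold lower in the shADAR1 input than in the shControl input, and ELAVL1 was 6.59-fold lower in the shHuR input. All 10 fibroblast markers were detected in every library, with summed levels between 3450 and 11900 CPM (counts scaled to library size). KRT5 and KRT14 (epithelial), CDH5 (endothelial) and CD3E (T cells) had 0 counts in all 8 libraries. The other epithelial, endothelial and leukocyte markers in the files were detected in some or all libraries. Their sums were highest in ADAR1 KD, at 221 CPM for epithelial, 88.8 CPM for endothelial and 47.1 CPM for leukocyte markers.

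Levels below are CPM scaled by the trimmed mean of M values (TMM) within each experiment. Differences between a pair of libraries are log2 ratios with 95% intervals that cover counting error only; a gene was called at 2-fold or more, with at least 50 counts in either library and a prior count of 2. In bulk RNA, fewer cells making a transcript and less of it per cell cannot be told apart.

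AREG, a ligand of EGFR, was the member that differed most in the RNA-seq. It had 1133 counts (22.2 CPM) in ADAR1 KD, against 11 counts (0.282 CPM) in Ctrl. The log2 ratio was 6.30 (5.45 to 7.30), 78.6-fold higher. EREG, which binds EGFR and ERBB4, had 359 counts (7.04 CPM) in ADAR1 KD, against 113 counts (2.90 CPM) in Ctrl, 2.43-fold higher (log2 1.28, 0.97 to 1.60). These neighbouring ligands were the 2 members called higher, where 8.31% of the 13235 genes with enough counts were; 0 members were called lower, where 7.71% of genes were. On the scale of log2(FPKM + 1), EREG had 0.62, under the limit. With a pseudocount of 0.1 in place of 1 it had 1.06, just past it.

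The remaining ligands stood close to the control in the RNA-seq. HBEGF, the heparin-binding ligand, had 717 counts in ADAR1 KD, against 456 in Ctrl (14.1 against 11.7 CPM; log2 0.26, 0.09 to 0.44). NRG1, the neuregulin that binds ERBB3, had 1105 counts in ADAR1 KD, against 723 in Ctrl (21.7 against 18.6 CPM; log2 0.22, 0.09 to 0.36). TGFA, a ligand of EGFR, had 1 count in ADAR1 KD, against 0 in Ctrl, where 0 counts allow up to 0.077 CPM. Among the ligands, then, a large difference was seen in AREG and a smaller one in EREG.

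EGFR and ERBB2 lay on the other side of their control. EGFR had 6835 counts (134 CPM) in ADAR1 KD, against 8461 (217 CPM) in Ctrl, 1.62-fold lower (log2 -0.70, -0.74 to -0.65). ERBB2 had 1313 counts (25.7 CPM) in ADAR1 KD, against 1482 (38.1 CPM) in Ctrl, 1.48-fold lower (log2 -0.56, -0.67 to -0.46). Neither reached the 2-fold limit. ERBB3, the kinase-impaired receptor of neuregulins, was near its limit of detection with 20 counts in ADAR1 KD, against 10 in Ctrl (log2 0.61, -0.55 to 1.87). ADAM17, the main sheddase of AREG, EREG, HBEGF and TGFA, had 3963 counts in ADAR1 KD, against 3406 in Ctrl (77.7 against 87.5 CPM; log2 -0.17, -0.24 to -0.10), or 0.14 once trends over GC and length were taken out.

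In the RNA-seq pair, the summed epithelial markers were 221 CPM in ADAR1 KD, against 115 CPM in Ctrl (mostly KRT18, 187 against 86.9 CPM), and the endothelial markers in the files summed to 88.8 CPM in ADAR1 KD, against 55.1 CPM in Ctrl. Of the endothelial markers, KDR was called higher. Leukocyte markers summed to 47.1 CPM in ADAR1 KD, against 44.6 CPM in Ctrl. Fibroblast markers summed to 11300 CPM in ADAR1 KD, against 11900 CPM in Ctrl, with COL1A1 called higher and DCN lower. The part of these markers in the results for AREG and EREG was not tested. An hg19 annotation can list AREG as near-identical copies, so reads shared with another copy make the count of AREG uncertain; the RefSeq table gives AREGB as a synonym of AREG.

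**Figure D2:**
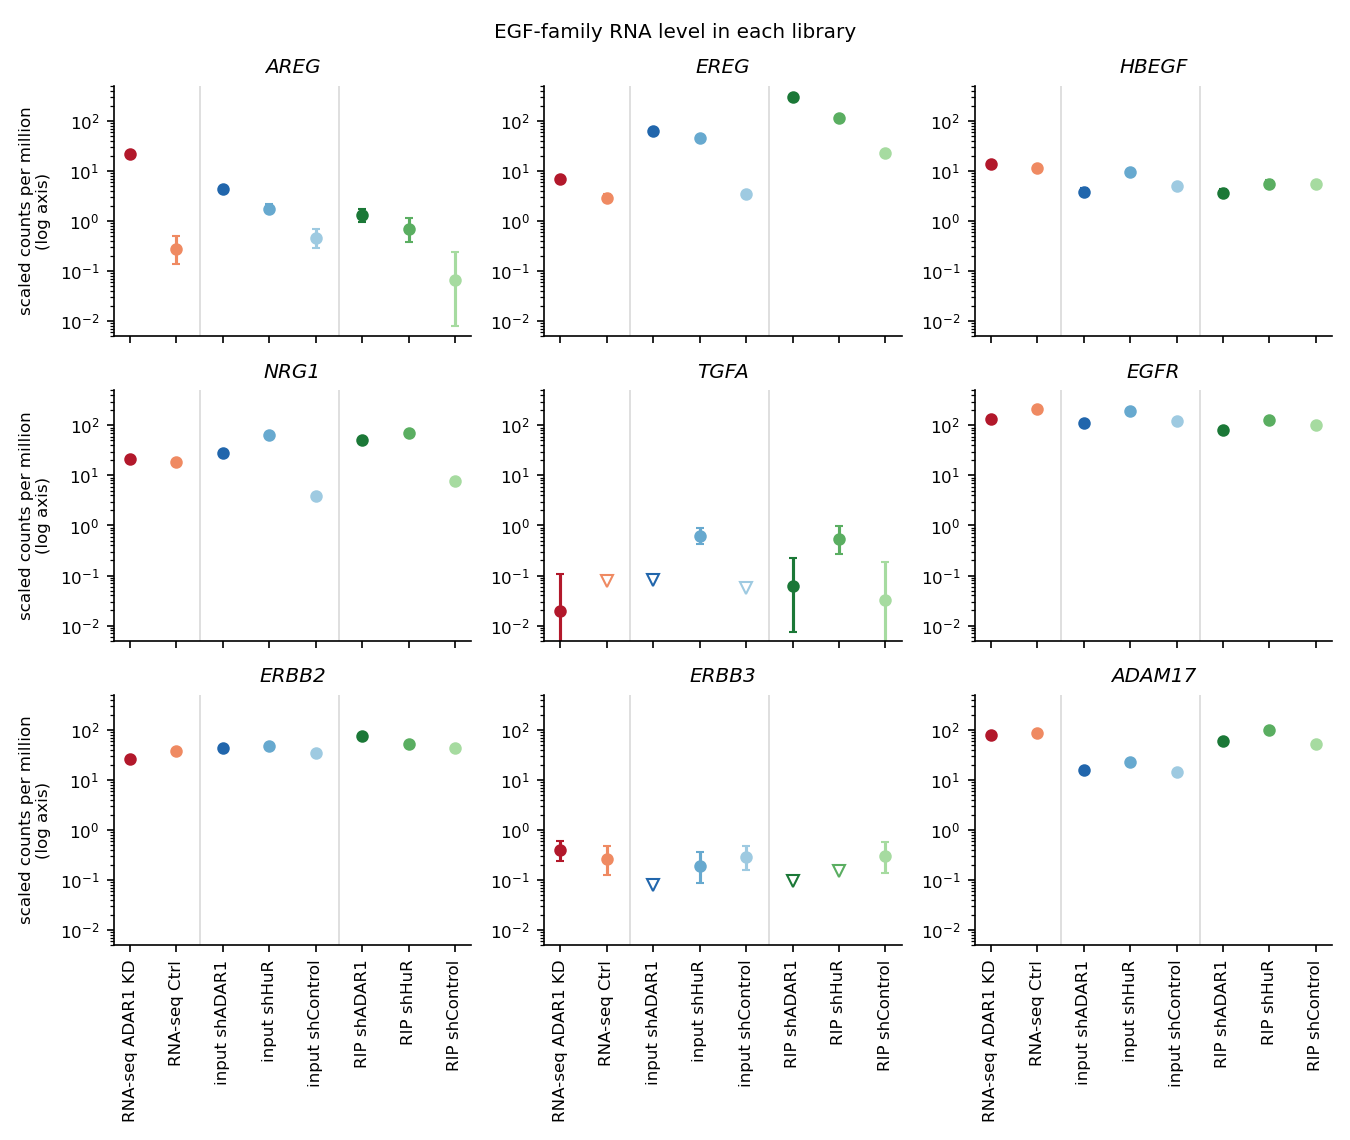
TMM-scaled CPM of each member (log axis) in the 8 libraries, RNA-seq left, inputs in the middle, precipitates right; bars are 95% counting intervals, and open triangles mark 0 counts, drawn at the level of 3 counts. AREG spans 0.0663 to 22.2 CPM, while EGFR stays between 81.5 and 217 CPM.

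In the inputs of the immunoprecipitation experiment, 3 ligands were far higher in the shADAR1 line. EREG had 2304 counts (61.8 CPM) in the shADAR1 input, against 184 counts (3.52 CPM) in the shControl input, 17.5-fold higher (log2 4.13, 3.92 to 4.36). AREG had 163 counts (4.37 CPM) in shADAR1, against 24 counts (0.460 CPM) in shControl, 9.51-fold higher (log2 3.25, 2.63 to 3.93). NRG1 had 1049 counts (28.1 CPM) in shADAR1, against 204 counts (3.91 CPM) in shControl, 7.20-fold higher (log2 2.85, 2.63 to 3.07). These were the 3 members called higher, where 9.14% of 13192 genes were, and 0 were called lower, where 10.3% of genes were.

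The other members were within 2-fold in the shADAR1 input or too low to call. HBEGF had 144 counts in shADAR1, against 260 in shControl (3.86 against 4.98 CPM; log2 -0.37, -0.67 to -0.07), and TGFA had 0 counts in both. EGFR had 4184 counts in shADAR1, against 6281 in shControl (112 against 120 CPM; log2 -0.10, -0.16 to -0.04). ERBB2 had 1616 counts in shADAR1, against 1759 in shControl (43.4 against 33.7 CPM; log2 0.36, 0.27 to 0.46). HBEGF and ERBB2 thus stood on opposite sides of their controls in the RNA-seq pair and in these inputs. So did ADAM17, with small ratios, and ERBB3, with few counts. ERBB3 had 0 counts in shADAR1, against 15 in shControl, at least 3.57-fold lower against a floor of 3 counts in the shADAR1 library. ADAM17 had 597 counts in shADAR1, against 748 in shControl (16.0 against 14.3 CPM; log2 0.16, 0.00 to 0.32), or -0.01 with GC and length trends removed.

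The shHuR input was set against the same shControl input, so its ratios share that library with those of shADAR1. NRG1 had 3130 counts (64.9 CPM) in shHuR, against 204 counts (3.91 CPM) in shControl, 16.6-fold higher (log2 4.05, 3.85 to 4.27). EREG had 2209 counts (45.8 CPM) in shHuR, against 184 counts (3.52 CPM) in shControl, 13-fold higher (log2 3.70, 3.48 to 3.93). AREG had 86 counts (1.78 CPM) in shHuR, against 24 counts (0.460 CPM) in shControl, 3.88-fold higher (log2 1.96, 1.29 to 2.67). The same 3 ligands were called higher here, where 12.2% of 13390 genes were, and 0 members were called lower, where 15.6% of genes were.

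HBEGF was just short of the limit in the shHuR input, with 465 counts in shHuR, against 260 in shControl (9.64 against 4.98 CPM; log2 0.95, 0.73 to 1.18). TGFA was detected there, with 30 counts in shHuR, against 0 in shControl, at least 10.8-fold higher against a floor of 3 counts in the shControl library; its counts were too few to call. EGFR had 9486 counts in shHuR, against 6281 in shControl (197 against 120 CPM; log2 0.71, 0.66 to 0.76). All 7 members with enough counts thus had a ratio above 0 in this comparison, where the median over all genes was -0.02. At a limit of 1.5-fold 6 of them would be called. The share of all genes at that limit was not counted, but cannot be under the 12.2% called higher at 2-fold. HBEGF stood at 1.02, past the 2-fold limit, once trends over GC and length were taken out. ADAM17 had 1107 counts in shHuR, against 748 in shControl (23.0 against 14.3 CPM; log2 0.68, 0.54 to 0.82), and ERBB2 had 2242 in shHuR, against 1759 in shControl (46.5 against 33.7 CPM; log2 0.46, 0.37 to 0.56). ERBB3 had 9 counts in shHuR, against 15 in shControl (log2 -0.62, -2.00 to 0.66).

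Set against each other, the 2 knockdown inputs differed in their ligand makeup. HBEGF was 2.50-fold higher (log2 1.32, 1.05 to 1.60) and NRG1 2.31-fold higher (log2 1.21, 1.10 to 1.31) in shHuR than in shADAR1, where 5.24% of 13020 genes were called higher. AREG was 2.45-fold lower in shHuR than in shADAR1 (log2 -1.29, -1.69 to -0.91), where 9.67% of genes were called lower. EREG, high in both, had a log2 ratio of -0.43 (-0.52 to -0.35), EGFR of 0.81 (0.76 to 0.86), ADAM17 of 0.52 (0.37 to 0.67) and ERBB2 of 0.10 (0.01 to 0.19). TGFA had 30 counts in shHuR, against 0 in shADAR1 (at least 7.73-fold higher), and ERBB3 had 9 in shHuR, against 0 in shADAR1 (at least 2.32-fold higher), both against a floor of 3 counts in the shADAR1 library.

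Markers of fibroblasts and of other cell types moved in the inputs as well. Fibroblast markers summed to 11000 CPM in shADAR1 and 6500 CPM in shHuR, against 9210 CPM in shControl. LUM, DCN and PDGFRA were called higher in shADAR1, and in shHuR LUM was called higher and COL1A1 lower. The epithelial sum was 39.9 CPM in shADAR1 and 39.8 CPM in shHuR, against 84.9 CPM in shControl. Endothelial markers summed to 56.1 CPM in shADAR1 and 27 CPM in shHuR, against 14.7 CPM in shControl. TEK carried that sum, with 55 CPM in shADAR1 and 26.3 CPM in shHuR, against 12.3 CPM in shControl. ROBO4 was called lower in both, with 0.429 CPM in shADAR1 and 0.228 CPM in shHuR, against 1.07 CPM in shControl, and so was VWF in shHuR, with 0.436 CPM against 1.34 CPM in shControl. Leukocyte markers summed to 24.9 CPM in shADAR1 and 21.5 CPM in shHuR, against 22.6 CPM in shControl, with CD14 at 152 counts in shADAR1 and 15 in shHuR, against 1 in shControl. The part of these markers in the ligand ratios was not tested.

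**Figure D3:**
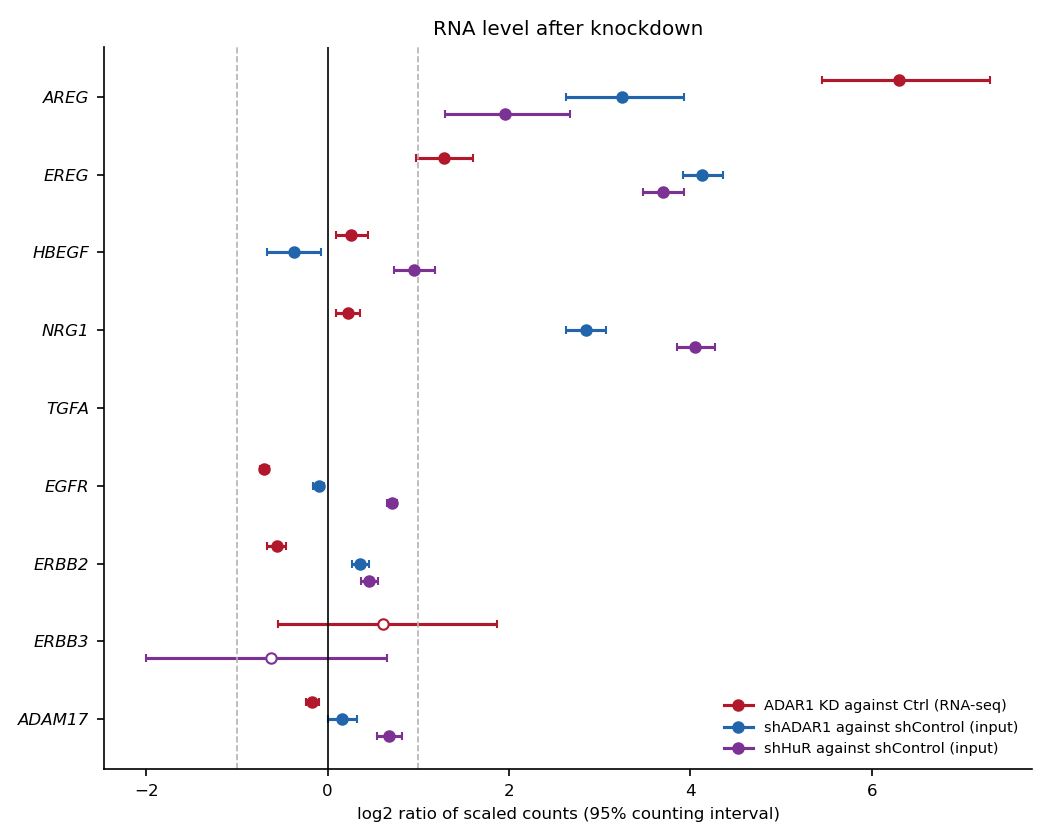
Log2 ratios of each member in 3 knockdown comparisons with 95% counting intervals; dashed lines mark 2-fold, open points have too few counts to call, and members with 0 counts in a library have no point. AREG (6.30, 3.25 and 1.96) and EREG (1.28, 4.13 and 3.70) lie past 2-fold higher in all 3, whereas NRG1 does so in both inputs and stands at 0.22 in the RNA-seq.

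The knockdown of ADAR1 could be tested over both experiments, with edgeR's quasi-likelihood test on 4 libraries (the RNA-seq pair and the shADAR1 and shControl inputs), the experiment as a term and 1 residual degree of freedom. Of 15994 genes, 0.0813% were called higher and 0.0125% lower at an adjusted p of 0.05, and 0 of the 8 members tested were among them. AREG had a log2 fold change of 4.70 (SE 0.83; edgeR adjusted p = 0.0811), higher in 2 of 2 experiments. EREG had 2.72 (SE 0.68; edgeR adjusted p = 0.382) and NRG1 1.52 (SE 0.63; edgeR adjusted p = 0.977), both higher in 2 of 2 experiments. These 3 ligands are the members with an unadjusted edgeR p under 0.05, as were 761 of the 15994 genes. DESeq2 with the same terms called AREG (adjusted p = 2.44e-06) and EREG (adjusted p = 0.00436), and edgeR without its filter on low counts did so as well (adjusted p = 6.49e-09 and 0.000173). With DESeq2 size factors, edgeR called neither ligand (adjusted p = 0.078 for AREG and 0.358 for EREG). Without the experiment as a term, edgeR also called neither. With 1 library per group in each experiment, the residual spread is how far the knockdown ratio differed between the experiments, not a spread among replicates. The labels do not say how the RNA-seq KD was made, so it and the shADAR1 line may not be replicates of a single condition. No label says that the libraries are separate cultures, so part of that spread may be technical.

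Per length, the sum of the 5 ligands was 55.0 CPM per kb in ADAR1 KD, against 22.4 CPM per kb in Ctrl. AREG made up 51.1% of that ligand level in ADAR1 KD, against 1.60% in Ctrl, and NRG1 33.4% in ADAR1 KD, against 70.3% in Ctrl. In the inputs the sum was 47.3 CPM per kb in shADAR1 and 74.0 CPM per kb in shHuR, against 7.17 CPM per kb in shControl. There NRG1 was the leading ligand per length in every line, at 50.4% in shADAR1, 74.4% in shHuR and 46.2% in shControl. EREG followed with 34.0% in shADAR1 and 16.1% in shHuR. In the shControl input, HBEGF took second place per length with 32.8% and EREG had 12.8%. In CPM not divided by length, EREG led in shADAR1 (61.8 against 28.1 for NRG1) and HBEGF in shControl (4.98 against 3.91 for NRG1).

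The order of the members by level per length placed ERBB2, EGFR and ADAM17 above the 5 ligands in control cells, while ERBB3 had 0.223 CPM per kb in Ctrl and 0.249 in the shControl input. In the RNA-seq Ctrl library, ERBB2 (30.0 CPM per kb), ADAM17 (26.2), EGFR (23.7), NRG1 (15.7) and HBEGF (5.54) led, all with counting intervals that did not overlap. EREG (0.756 CPM per kb), AREG (0.358) and ERBB3 (0.223) followed, and neighbours in that order overlapped in their intervals. In ADAR1 KD, AREG stood first at 28.1 CPM per kb, ahead of ADAM17 (23.2), ERBB2 (20.3) and NRG1 (18.4), of which the last pair overlapped. In the shControl input the order began with ERBB2 (26.6 CPM per kb), EGFR (13.1), ADAM17 (4.29) and NRG1 (3.31). Lengths are those implied by the deposited counts and FPKM of the RNA-seq (for TGFA, the transcript length), which were 1.27 kb for ERBB2 and 1.18 kb for NRG1, so the order rests on the isoforms that RSEM assigned there.

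Of the 7 other family genes, EGF alone had enough counts to compare in the RNA-seq, with 262 counts in ADAR1 KD, against 145 in Ctrl (log2 0.46, 0.17 to 0.77). EGF was called higher in the shHuR input, with 100 counts in shHuR, against 39 in shControl (2.78-fold; log2 1.47, 0.93 to 2.05). EPGN, which lies next to EREG on chromosome 4, had 17 counts in the shHuR input and 0 in the shADAR1 and shControl inputs. ERBB4, the second receptor of neuregulins, had 0 counts in the RNA-seq pair and in all 3 inputs.

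Recovery with the antibody against HuR differed between the members, and which of them passed 2-fold changed with the scaling, as given below. EREG had 9565 counts (297 CPM) in the shADAR1 precipitate, against 2304 (61.8 CPM) in its input, 4.81-fold enriched (log2 2.27, 2.20 to 2.33). In shHuR it had 2373 counts (117 CPM) in the precipitate, against 2209 (45.8 CPM) in the input, 2.56-fold enriched (log2 1.36, 1.27 to 1.44). In shControl it had 679 counts (22.5 CPM) in the precipitate, against 184 (3.52 CPM) in the input, 6.38-fold enriched (log2 2.67, 2.44 to 2.92). EREG was thus higher in the precipitate of every line, by the smallest ratio in the line with HuR knocked down.

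ADAM17 was recovered as steadily. It had 1885 counts in the shADAR1 precipitate, against 597 in its input (58.6 against 16.0 CPM; 3.66-fold, log2 1.87, 1.74 to 2.01). In shHuR it had 2048 counts in the precipitate, against 1107 in the input (101 against 23.0 CPM; 4.41-fold, log2 2.14, 2.03 to 2.25), and in shControl 1567 in the precipitate, against 748 in the input (51.9 against 14.3 CPM; 3.62-fold, log2 1.86, 1.73 to 1.98). Its enrichment in the shHuR line was not below that of the other lines. EREG and ADAM17 were the 2 members called enriched in each line, where 30.0% of 13114 genes were in shADAR1, 25.5% of 13061 in shHuR and 30.7% of 13309 in shControl.

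AREG, whose UTR stretch is shown above, was lower in the precipitates. It had 42 counts in the shADAR1 precipitate, against 163 in its input (1.30 against 4.37 CPM; 3.35-fold lower, log2 -1.74, -2.27 to -1.25). In shHuR it had 14 counts in the precipitate, against 86 in the input (0.692 against 1.78 CPM; 2.58-fold lower, log2 -1.37, -2.30 to -0.54), and in shControl 2 in the precipitate, against 24 in the input (log2 -2.79, -5.92 to -0.78), too few to call. AREG was the member called lower in shADAR1, where 37.5% of genes were, and in shHuR, where 25.4% were; in shControl, 38.4% of genes and 0 members were called lower. With the trend over transcript length removed, its ratios were -0.74 in shADAR1 and -0.59 in shHuR, under 2-fold.

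With TMM scaling, NRG1, EGFR and ERBB2 stayed within 2-fold in every line. NRG1 had 1656 counts in the shADAR1 precipitate, against 1049 in its input (log2 0.87, 0.76 to 0.98), 1448 against 3130 in shHuR (0.14, 0.05 to 0.23), and 233 against 204 in shControl (0.98, 0.70 to 1.26). ERBB2 had log2 ratios of 0.78 (0.68 to 0.87) in shADAR1, 0.14 (0.04 to 0.25) in shHuR and 0.37 (0.26 to 0.47) in shControl. EGFR had -0.46 (-0.53 to -0.39) in shADAR1, -0.64 (-0.70 to -0.57) in shHuR and -0.24 (-0.30 to -0.17) in shControl. With this scaling EGFR was thus below its input in every line and ERBB2 above it, whereas with total counts ERBB2 was below it too. HBEGF stood at -0.09 (-0.45 to 0.27) in shADAR1, -0.79 (-1.10 to -0.49) in shHuR and 0.15 (-0.14 to 0.44) in shControl. TGFA had 2 counts in the shADAR1 precipitate, against 0 in its input, 11 against 30 in shHuR and 1 against 0 in shControl, and ERBB3 had 0 in both shADAR1 libraries, 0 in the precipitate against 9 in the input of shHuR, and 9 against 15 in shControl.

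These ratios are relative to the scaling. Scaling by total counts moved the median of all genes by -0.85 in shADAR1, -0.99 in shHuR and -0.86 in shControl (log2). On that scale ERBB2 had values below 0 in all 3 lines (-0.09, -0.85 and -0.51 in the same order), EREG had 0.36 in shHuR, and ADAM17 had 0.98 in shControl, both short of 2-fold. EGFR was past 2-fold lower there, at -1.32 in shADAR1, -1.63 in shHuR and -1.11 in shControl, and HBEGF was so in shHuR (-1.77). Once trends over GC and length were taken out, EREG stood at 1.30 in shADAR1, 0.87 in shHuR and 1.23 in shControl, and ADAM17 at 1.32, 1.84 and 1.02. EGFR then stood past 2-fold lower at -1.37, -1.47 and -1.04. NRG1 stood at 1.21, 0.36 and 1.38 and ERBB2 at 1.14, 0.19 and 1.41, both past 2-fold higher in shADAR1 and shControl but not in shHuR.

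**Figure D4:**
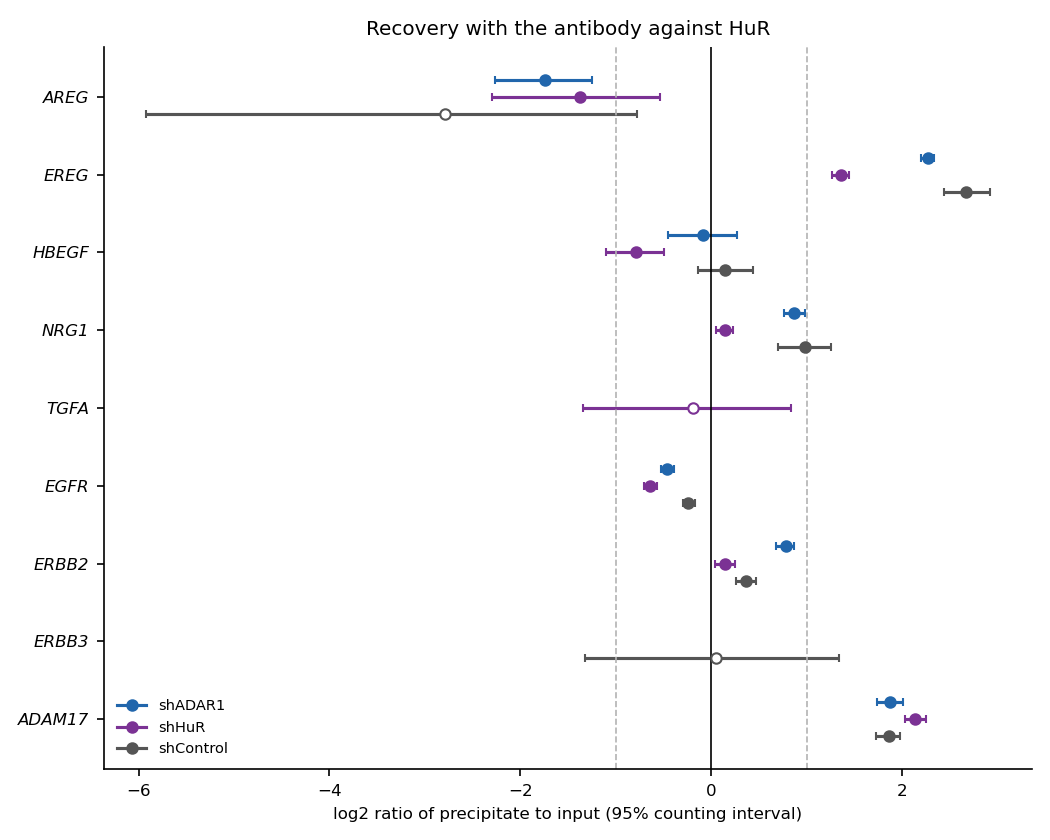
Log2 ratio of precipitate to input for each member in the shADAR1, shHuR and shControl lines, with 95% counting intervals; dashed lines mark 2-fold, open points have too few counts to call, and members with 0 counts in a library have no point. EREG and ADAM17 lie past 2-fold in all 3 lines, and AREG lies below its input.

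Over the 3 lines, precipitate was tested against input with edgeR on 6 libraries, the cell line as a term and 2 residual degrees of freedom. The lines carry different hairpins, including the one against HuR, so they are not replicates of a single condition. The edgeR p-values also use TMM scaling, on which the ratios depend. EREG rose, with a log2 fold change of 2.15 (SE 0.31; edgeR adjusted p = 0.000232), and so did ADAM17, with 2.01 (SE 0.28; edgeR adjusted p = 0.000156), both in 3 of 3 lines. AREG fell, with -1.74 (SE 0.50; edgeR adjusted p = 0.0111), in 3 of 3 lines. Of 15342 genes tested, 31.3% rose and 32.7% fell, and 2 of the 7 members tested rose and 1 fell. NRG1 had 0.71 (SE 0.30; edgeR adjusted p = 0.0531), ERBB2 0.48 (adjusted p = 0.139), EGFR -0.39 (adjusted p = 0.191) and HBEGF -0.19 (adjusted p = 0.650). DESeq2 also called NRG1 (0.76; adjusted p = 0.0289). TGFA and ERBB3 did not pass the filter on low counts. Without the shADAR1 line, AREG had an edgeR adjusted p of 0.0694, and without the shHuR line NRG1 (0.97; edgeR adjusted p = 0.00380) and ERBB2 (0.62; edgeR adjusted p = 0.0402) passed the threshold. Without the line as a block, the edgeR adjusted p was 0.231 for AREG, 0.15 for EREG and 0.00586 for ADAM17.

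Across all genes, the number of pentamers in the 3′ UTR moved with enrichment in the shControl line. The 3356 genes with 0 pentamers had a median log2 ratio of -2.16, and 11.3% were enriched 2-fold; the 1603 genes with 10 or more had a median of 1.48, and 63.1% were enriched. UTR length moved with the pentamer count, with a median of 368.5 bases in the first group and 4467 bases in the last, and their parts were not separated. EREG, with 20 pentamers, and AREG, with 4, stood on opposite sides of their inputs; genes with 4 to 9 pentamers had a median of 0.62. EGFR, with 9 pentamers, was also below its input.

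Enrichment in the shADAR1 line was set against that in shControl to ask whether ADAR1 knockdown went with another recovery. At a limit of 1.5-fold, 0 of the 6 members with enough counts were called, where 19.7% of 12641 genes were higher and 14.2% lower. The differences in log2 enrichment were -0.41 for EREG (-0.65 to -0.16), 0.41 for ERBB2 (0.27 to 0.55), -0.24 for HBEGF (-0.69 to 0.21), -0.23 for EGFR (-0.32 to -0.13), -0.11 for NRG1 (-0.40 to 0.18) and 0.01 for ADAM17 (-0.17 to 0.20). With GC and length trends removed, EREG stood at 0.01 and ERBB2 at -0.29. The higher EREG level in the shADAR1 precipitate, 297 against 22.5 CPM in shControl, thus went with a higher input level rather than a higher ratio to input.

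In shHuR against shControl, 3 ligands had a lower enrichment. The difference in log2 enrichment was -1.32 for EREG (-1.57 to -1.07), 2.49-fold lower. For HBEGF it was -0.94 (-1.35 to -0.53) and for NRG1 -0.84 (-1.13 to -0.56). These 3 of 6 members were called lower, where 23.5% of 12468 genes were, and 0 were called higher, where 39.4% of genes were. EGFR had -0.40 (-0.49 to -0.31), ERBB2 -0.22 (-0.37 to -0.08) and ADAM17 0.28 (0.12 to 0.45), against a median of 0.25 over all genes. With GC and length trends removed, EREG stood at -0.37, under the limit, and ERBB2 at -1.20, past it, while HBEGF (-1.05) and NRG1 (-1.0) were still past it. The shHuR input also held far more EREG and NRG1 than the shControl input, and the part of that input level in the lower ratio was not tested. AREG had differences of 1.05 (-1.09 to 3.19) in shADAR1 and 1.43 (-0.81 to 3.66) in shHuR, too few counts to call, and TGFA and ERBB3 gave none.

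Pathway genes around the members were called in each comparison, in counts to be read against all genes. In the RNA-seq 8.31% of genes were higher and 7.71% lower, in shADAR1 9.14% higher and 10.3% lower, and in shHuR 12.2% higher and 15.6% lower. Of 9 shedding genes with enough counts, ADAM19 (3.30-fold; log2 1.72) and ADAM12 (2.72-fold; log2 1.45), metalloproteases of the same family as ADAM17, were called higher after ADAR1 KD. RHBDF2, which encodes iRhom2, a partner that ADAM17 needs to mature, was called lower with 37 counts in ADAR1 KD, against 141 in Ctrl (log2 -2.32), and so was ADAM9 (log2 -1.44). ADAM10, the other main sheddase, had a log2 ratio of -1.0, just inside the limit. In the inputs, ADAM19 was called higher in shADAR1 (log2 1.12) and in shHuR (1.53), ADAM12 was called higher in shHuR (1.68), and RHBDF2 was called lower in shADAR1 (-1.21). Medians of the list were -0.61 in the RNA-seq, 0.09 in shADAR1 and 0.20 in shHuR, against -0.01, -0.03 and -0.02 over all genes. Over both ADAR1 knockdown experiments, edgeR called 0 of 10 shedding partners, with 2 at an unadjusted p under 0.05, and DESeq2 called 0; ADAM19 had an edgeR adjusted p of 0.721 and RHBDF2 of 0.773.

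Signal transducers downstream of the receptors were called lower in 4 of 21 cases in the RNA-seq, where 7.71% of all genes were. None was called higher, where 8.31% of genes were. Those called lower were NRAS (log2 -1.27), SOS2 (-1.26), SOS1 (-1.22) and PIK3CA (-1.14). They encode a RAS protein, a pair of exchange factors for RAS and a catalytic subunit of phosphoinositide 3-kinase. In the inputs, 0 of 21 were called in shADAR1, where 9.14% of genes were higher and 10.3% lower. NRAS was called lower in shHuR (-1.88), where 15.6% of genes were. Medians of the list were -0.32 in the RNA-seq, 0.14 in shADAR1 and 0.10 in shHuR, against the same -0.01, -0.03 and -0.02 over all genes. Over both experiments, edgeR and DESeq2 each called 0 of 21, with 1 at an unadjusted p under 0.05, so the lower calls of the RNA-seq rest on 1 pair of libraries.

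Feedback inhibitors, which restrain the receptor or ERK, gave 1 gene higher and 1 lower of 16 in the RNA-seq: SPRY4, a Sprouty protein (log2 1.15), and LRIG1, which promotes degradation of EGF receptors (-1.69). In shADAR1, DUSP6 (1.66) and DUSP4 (1.14), phosphatases of ERK, and ERRFI1 (1.31), an inhibitor of EGFR, were called higher, and LRIG1 was called lower (-2.24). In shHuR, 3 were called higher and 3 lower, with the largest ratios for LRIG3 (-1.79), DUSP6 (1.5), SOCS5 (-1.40) and LRIG1 (-1.14). LRIG1 was thus below its control in all 3 comparisons. Medians were -0.41 in the RNA-seq, 0.29 in shADAR1 and -0.07 in shHuR, against -0.01, -0.03 and -0.02 over all genes. Of all genes, 8.31% were higher and 7.71% lower in the RNA-seq, 9.14% and 10.3% in shADAR1, and 12.2% and 15.6% in shHuR. Over both experiments, edgeR called 0 of 16, with 1 at an unadjusted p under 0.05, and DESeq2 called LRIG1 lower.

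Of 9 ERK-dependent transcripts, ETV4 (log2 1.36) was called higher and EPHA4 (-1.02) lower in the RNA-seq. ETV4 was called lower in both inputs, at -1.38 in shADAR1 and -2.47 in shHuR. CCND1, which encodes cyclin D1, was called higher in shADAR1 (1.31) and shHuR (1.04) and stood at -0.42 in the RNA-seq. EGR1 was called higher in shADAR1 (1.15) and lower in shHuR (-1.87), and EPHA4 was called higher in shHuR (1.10). The list had medians of 0.18 in the RNA-seq, -0.05 in shADAR1 and -0.58 in shHuR, against -0.01, -0.03 and -0.02 over all genes. Its calls are to be read against the same shares of all genes, 8.31% higher and 7.71% lower in the RNA-seq, 9.14% and 10.3% in shADAR1, and 12.2% and 15.6% in shHuR. Over both experiments, edgeR and DESeq2 each called 0 of 9, with 0 at an unadjusted p under 0.05.

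**Figure D5:**
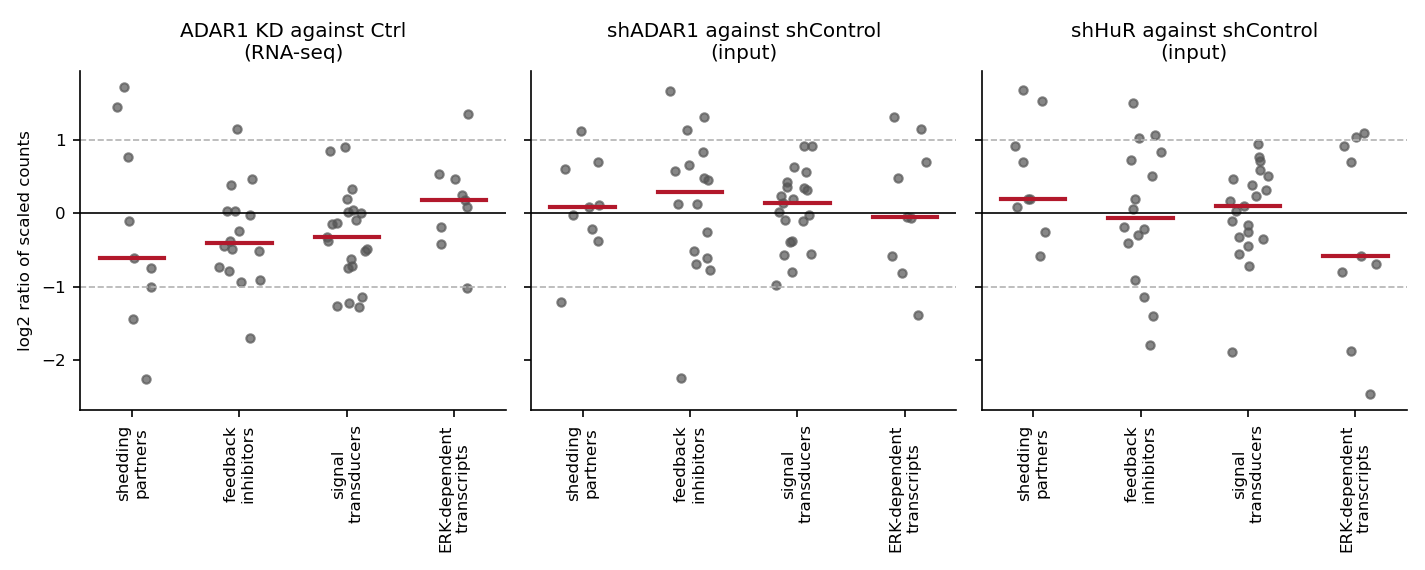
Log2 ratios of the pathway genes with enough counts, by list, in 3 knockdown comparisons; each grey point is a gene, red bars are list medians and dashed lines mark 2-fold. Of the signal transducers, 4 lie past 2-fold lower in the RNA-seq, 0 in the shADAR1 input and 1 in the shHuR input.

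In the precipitates, feedback inhibitors had the highest share of enriched genes among the 4 pathway lists. Of 16, 10 were called enriched in shADAR1, 6 in shHuR and 10 in shControl. Of all genes, 30.0% were called enriched in shADAR1, 25.5% in shHuR and 30.7% in shControl. The medians of the feedback inhibitors were 1.12, 0.56 and 1.32, against -0.26, -0.26 and -0.25 over all genes. ERK-dependent transcripts came close, with 5 of 9 enriched in shADAR1, 3 in shHuR and 5 in shControl. Their medians were 1.27, 0.19 and 1.23 in the same order. Over the 3 lines, edgeR called 10 of 16 feedback inhibitors higher and 3 lower at an adjusted p of 0.05, against the 31.3% and 32.7% of all genes given above. For shedding partners the split was 4 higher and 2 lower of 9, for signal transducers 7 higher and 6 lower of 21, and for ERK-dependent transcripts 5 higher and 3 lower of 9.

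The genes whose profiles over the 8 libraries were most like those of the members were ranked by the root mean square difference between centred log2 CPM profiles, among 14391 genes. The profile of EREG was closest to KIAA1671 (0.32), LIMCH1 (0.45) and KCNJ6 (0.52), where the median gene differed by 2.54. That of AREG had no gene as near: AKR1B10 (0.92), GMFG (1.02) and SAMD11 (1.02). NRG1 was closest to SLC16A14 (0.50), STC2 (0.52) and NFKBIZ (0.54). HBEGF was closest to SNAPC5 (0.24), BLOC1S2 (0.26) and SLC28A3 (0.27), and ADAM17 to EXOSC3 (0.19), ZC3H8 (0.24) and UGGT1 (0.26). EGFR was closest to SLC20A2 (0.13), RER1 (0.14) and LAMTOR3 (0.18), and ERBB2 to SMURF1 (0.16), KPNA1 (0.20) and KLHL18 (0.21). The libraries share cell line and, within an experiment, preparation, so this is a description of likeness only. TGFA and ERBB3 had too few counts for a profile.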

How the data were processed

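The authors deposited gene-level expected counts from RSEM 1.2.3 for both experiments, with hg19 (and GRCh37 in the immunoprecipitation experiment) as build, per the submitters' processing notes. These deposited expected counts are whole numbers and were used as they stand. FPKM were deposited for the RNA-seq, per the file headers, and served for lengths and for an alternative with pseudocounts of 0.1 and 1. Those notes also list DESeq2 for the RNA-seq. The aligner, annotation and strand setting are not given in the sources used here, so antisense genes could not be separated.

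Counts were scaled by TMM in edgeR 4.0.16 (R 4.3.3), separately for each experiment. With 1 library per group, pairs were compared by ratio with exact conditional binomial intervals, and differences in enrichment, called at 1.5-fold, with Wald intervals from 4 counts; neither is a test. Tests over both experiments and over the 3 lines used edgeR's quasi-likelihood fit with Benjamini-Hochberg adjustment. The pairing comes from the labels: libraries of a block share the experiment or the line. DESeq2 1.42.0 (its counts over the pathway lists were added after seeing the data) and trends fitted with mgcv 1.9.3 were alternatives. Of the IDs, 51959 matched a gene name table and 341 more matched GENCODE 29. Named genes are the 9 members, listed pathway genes called in a comparison (at most 4 per list and comparison, by size), and the 3 nearest profiles per member; ADAM10, the cell type markers, and CCND1, EGF, EPGN and ERBB4 where not called, were named after their values were seen. The members and lists were chosen with earlier results of these data known. Intervals and floors cover counting error only. Sequences came from RefSeq promoters and GENCODE transcripts; no protein sequence was used.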

Additional observations from a re-analysis of the deposited data

Results flagged for a closer look

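HBEGF, ERBB2 and, with small ratios, ADAM17 moved in opposite directions under ADAR1 knockdown in the 2 experiments. HBEGF had a log2 ratio of 0.26 in the RNA-seq pair (ADAR1 KD against Ctrl) and -0.37 in the inputs (shADAR1 against shControl). ERBB2 had -0.56 in the RNA-seq pair and 0.36 in the inputs. ADAM17 had -0.17 (-0.24 to -0.10) in the RNA-seq pair and 0.16 (0.00 to 0.32) in the inputs. ERBB3, with too few counts to call, had 20 counts against 10 in the RNA-seq pair and 0 against 15 in the inputs. Each value comes from 1 library a group, and HBEGF, ERBB2 and ADAM17 did not reach 2-fold. The difference between the experiments was not tested.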

How the results depend on the processing

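For the 7 members with enough counts, 214 values under an alternative moved by less than their counting interval, 100 moved by more, and 0 of those called changed sign. The 2 members called in the RNA-seq became 1 with FPKM and a pseudocount of 1, where EREG had 0.62. They became 3 at 1.5-fold, 1 of them lower. The 3 called in the shADAR1 input became 4 with at least 10 counts, 1 of them lower. The 3 called in the shHuR input became 4 with at least 10 counts, and 4 with GC and length trends removed. The shares of all genes at these settings were not counted. In the shHuR input, 6 members instead of 3 passed a limit of 1.5-fold. The share of all genes at that limit was not counted, but cannot be under the 12.2% called higher at 2-fold. Members called enriched, 2 in each line, numbered 1 in shControl and 1 in shHuR with total counts; 4 in shADAR1 and 1 in shHuR with the length trend removed; 4 in shADAR1, 1 in shHuR and 4 in shControl with GC and length trends removed; and 4 in shADAR1 at 1.5-fold. Of the 3 differences in enrichment called in shHuR, 1 passed 2-fold. The 15 genes that edgeR called over both experiments for ADAR1 knockdown became 116 with DESeq2, 174 without the filter on low counts, and 0 with edgeR and no replicate block (85 at an unadjusted p under 0.05). For precipitate against input, 9828 genes were called, and 6420 to 11246 when 1 line was left out (6420 without the shADAR1 line); the calls of AREG and EREG were lost without the replicate block. The cause of these shifts was not tested. Depth limits TGFA and ERBB3 in every library and AREG in the shControl and Ctrl libraries.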
